A study of Mus musculus with 11 samples.

Results

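Notch signalling genes were followed in the left ventricle of mice with and without myocardial infarction (MI) and with and without Vegfc in myeloid cells. The 10 genes were chosen by name as 4 receptors (Notch1, Notch2, Notch3 and Notch4), 3 ligands (Jag1, Jag2 and Dll4) and 3 target genes (Hey1, Hey2 and Heyl). All 10 were found by symbol among the 25006 genes counted, and all 10 were among the 14779 genes tested. Each of the 11 RNA-seq libraries came from the left ventricle of 1 mouse. In the MI mice the left anterior descending coronary artery was tied permanently and infarcted tissue was taken on day 9, and in naive mice a piece of matching position and mass was taken. The naive groups were control (n = 2, mice M44 and M45) and Vegfc-deficient (n = 3, M149, M150 and M34), and the MI groups were control (n = 3, M006, M38 and M40) and Vegfc-deficient (n = 3, M35, M900 and M913). Vegfc-deficient mice carried Vegfc fl/fl with LysMCre, a Cre recombinase in the Lyz2 locus that is active in macrophages and other myeloid cells and may also act in neutrophils. For the control mice the genotype labels give Vegfc fl/fl, whereas the labels' protocol and the study's methods give LysMCre, and a legend gives C57BL/6 or Vegfc fl/fl. Ages were not given in the sources used here.

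Notch receptors are membrane proteins that are cut after they bind a ligand of the Jagged or Delta-like family on a neighbouring cell. The freed intracellular part enters the nucleus, joins the DNA-binding protein RBPJ and switches on target genes such as those of the HES and HEY families of repressors. In blood vessels DLL4 and NOTCH4 are known from endothelial cells and NOTCH3 and HEYL from smooth muscle cells and pericytes, whereas JAG1 is made by both.

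The libraries differed in more than the study's labels. Total counts were 10824989 to 14585642 in naive libraries and 14580756 to 26782728 in MI libraries. CPM are counts scaled to the total count of the library multiplied by its TMM factor. That factor was 0.764 to 0.875 in naive and 1.11 to 1.19 in MI libraries, so it raised naive CPM and lowered MI CPM. Lower values after MI therefore depend in part on this factor, and fold changes without such a factor were not tested. On this scale 3 counts corresponded to 0.101 to 0.363 CPM. Member counts ran from 40 to 3020, so no member fell to 3 counts in any library. Xist was at 0.624 to 11.8 CPM in naive and 188 to 403 CPM in MI libraries, and 4 Y-linked genes summed to 152 to 195 CPM in naive and 0 to 1.84 CPM in MI libraries. By these genes all naive libraries were from males and all MI libraries from females. MI and sex therefore cannot be told apart for any gene in the comparisons of MI with naive hearts, including differences described below as after MI. A list of 10 cardiomyocyte genes summed to 113600 to 149100 CPM in naive and 3727 to 34980 CPM in MI libraries, lowest in M40. Of 8 fibroblast genes 6 were higher after MI in control and 7 in Vegfc-deficient hearts, and of 8 macrophage genes 4 and 5. Of all genes tested 26.3% were higher in control and 30.0% in Vegfc-deficient hearts. Lyz2, which LysMCre interrupts, was at 2121 and 2282 CPM in naive controls, 72.5 CPM in M150 and 245 CPM in M34 of the naive Vegfc-deficient hearts. In M149, a library labelled naive and Vegfc-deficient, it was at 4565 CPM, above both controls. In MI hearts Lyz2 was at 4538 to 5380 CPM in controls and at 1392 CPM in M35, 203 CPM in M900 and 12.4 CPM in M913, so M35 kept more Lyz2 RNA than the other Vegfc-deficient libraries apart from M149. Fold changes and shares of the members that include M149 are also given without it. Vegfc itself was at 21.9 to 45.5 CPM over all 11 libraries, without a separation by genotype.

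RefSeq promoters were read for members called in the comparisons of MI with naive hearts. Of the 10 members 8 had an entry (GRCm38.p6), and Hey1 and Heyl had none. The stretches below lie within 250 bases upstream of the RefSeq start, are trimmed to leave out protein-coding exons, and are written 5′ to 3′ on the gene's strand. Notch2, Notch3 and Jag1 are shown because they were called higher after MI in both genotypes. Notch4 and Dll4 are shown because each was called lower in 1 genotype, Notch4 in Vegfc-deficient and Dll4 in control hearts, calls that were lost when single libraries were left out. Capitals mark matches on either strand to CACGCG, a core bound by HES and HEY repressors. They are Notch2 (chr3:98013288-98013526, plus strand), Notch3 (chr17:32166891-32167140, minus strand), Jag1 (chr2:137116645-137116770, minus strand), Notch4 (chr17:34564045-34564267, plus strand) and Dll4 (chr2:119325534-119325783, plus strand).
Notch2: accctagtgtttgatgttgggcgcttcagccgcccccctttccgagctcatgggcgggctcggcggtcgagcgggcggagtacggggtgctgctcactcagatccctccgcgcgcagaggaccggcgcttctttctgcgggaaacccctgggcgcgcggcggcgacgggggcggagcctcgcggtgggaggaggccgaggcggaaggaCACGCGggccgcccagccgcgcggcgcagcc
Notch3: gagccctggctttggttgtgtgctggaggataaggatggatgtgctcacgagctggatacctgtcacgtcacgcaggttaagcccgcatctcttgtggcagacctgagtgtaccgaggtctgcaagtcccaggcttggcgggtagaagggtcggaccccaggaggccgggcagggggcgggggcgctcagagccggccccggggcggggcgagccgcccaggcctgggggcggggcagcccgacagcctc
Jag1: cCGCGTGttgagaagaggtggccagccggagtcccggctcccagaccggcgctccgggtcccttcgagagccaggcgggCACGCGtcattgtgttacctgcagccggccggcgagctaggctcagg
Notch4: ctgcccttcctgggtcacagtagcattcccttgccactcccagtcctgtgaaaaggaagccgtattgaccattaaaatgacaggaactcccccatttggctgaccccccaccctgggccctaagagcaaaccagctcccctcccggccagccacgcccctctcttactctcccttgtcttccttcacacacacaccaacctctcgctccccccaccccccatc
Dll4: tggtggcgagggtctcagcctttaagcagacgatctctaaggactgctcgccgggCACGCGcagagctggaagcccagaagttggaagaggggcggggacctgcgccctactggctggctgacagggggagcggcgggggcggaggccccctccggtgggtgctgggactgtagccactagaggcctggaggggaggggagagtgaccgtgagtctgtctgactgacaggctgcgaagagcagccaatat

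CACGCG was found 1 time in the Notch2 stretch, 2 times in the 126 bases of Jag1 and 1 time in the Dll4 stretch, so it occurred both in genes called higher after MI and in Dll4, called lower in control hearts. Over the windows of 250 bases of 32851 RefSeq promoters, 7.62% held it. Searches on both strands for the RBPJ core TGGGAA (21.6% of promoters), for CACGTG (6.02%) and for the ETS core CCGGAA (12.0%) gave no match in the 5 stretches. These letters overlap with none of the CACGCG matches, and a missing match says only that the letters are not in these windows. The Notch2 stretch was the richest of the 5 in G and C, at 74.1% with 34 CpG dinucleotides, and Notch4 the poorest, at 59.2% with 4. Of the members not shown, Hey2 held 1 TGGGAA, Notch1 held none of the 4 motifs, and for Jag2 no base was left after trimming.

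The first question was which parts of the Notch system differed between infarcted and naive ventricle in control mice. Relative to naive controls, the infarcted control ventricle held more Notch2, Notch3 and Jag1 RNA and less Jag2, Dll4 and Hey1 RNA. By the quasi-likelihood test of edgeR, adjusted by the Benjamini-Hochberg method over all 14779 genes (the edgeR test, called at an adjusted p under 0.05), 3 of 10 members were higher and 3 were lower. Of all genes tested 26.3% were higher and 24.1% lower, so the member shares were close to those of all genes. The libraries of the 2 groups did not overlap for 7 of 10 members, against 72.1% of all genes tested. In the Vegfc-deficient hearts 4 of 10 members were higher (Notch2, Notch3, Jag1 and Heyl) and 2 lower (Notch4 and Jag2), against 30.0% and 27.7% of all genes. Without M149 they were 4 higher and 3 lower, Dll4 being the addition. There the groups did not overlap for 7 of 10 members, against 64.3% of all genes tested. The median log2 fold change of the members was 0.069 in control and 0.23 in Vegfc-deficient hearts, beside 0.13 and 0.097 over all genes tested. Without the naive control M44 the control count was 3 (Notch2, Notch3 and Jag1) in place of 6.

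**Figure D1:**
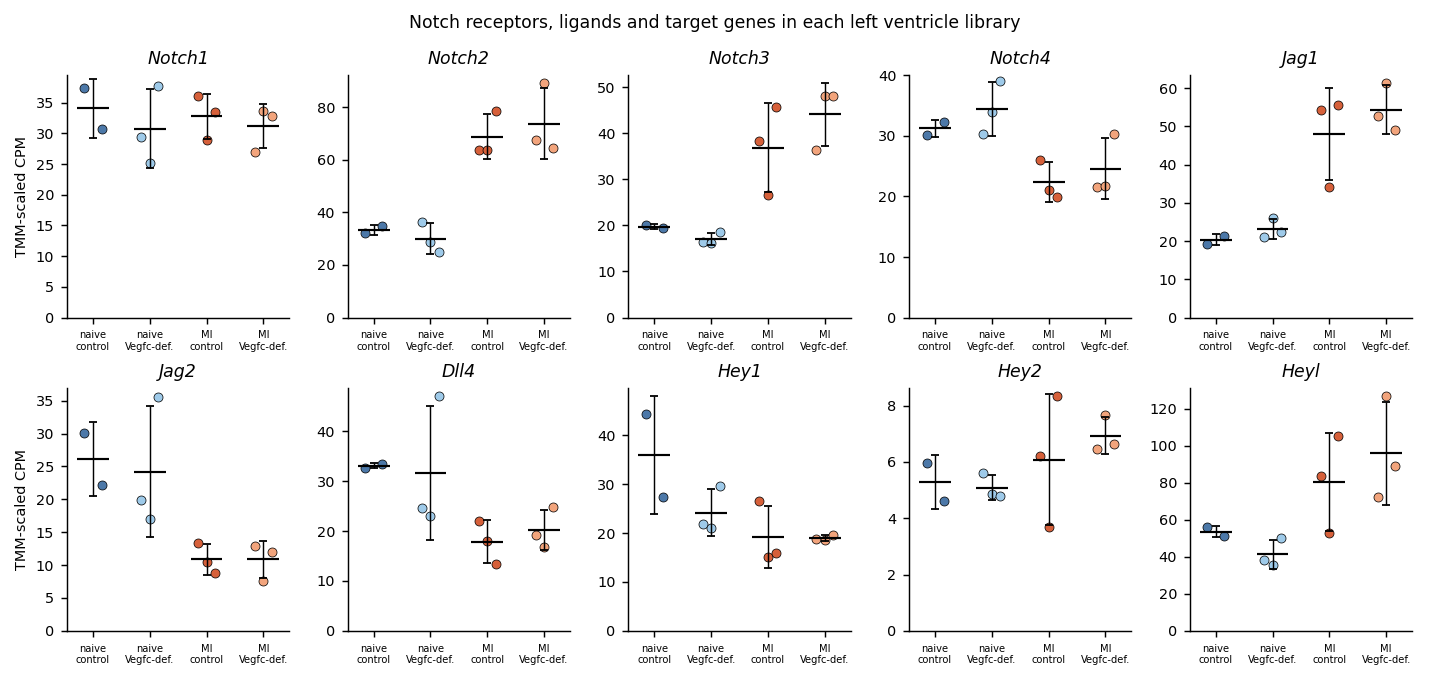
TMM-scaled CPM (vertical axes from 0, a separate scale for each gene) of the 10 members, with 1 point per library in the 4 groups, the group mean as a line and the SD as an error bar. All 6 MI libraries lie above all 5 naive libraries for Notch2, Notch3 and Jag1, and all below for Jag2. Within a genotype, MI and naive libraries did not overlap for 72.1% of all genes tested in control and 64.3% in Vegfc-deficient hearts. Over both genotypes together that share was not computed.

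Among the receptors, Notch2 was the most increased in control hearts. NOTCH2 is found in smooth muscle, fibroblasts, myeloid and other cells. Its RNA (ENSMUSG00000027878, chr3:98013527-98150361 of GRCm38) was at 32.0 and 34.8 CPM in naive controls and at 36.5, 28.8 and 24.8 CPM in naive Vegfc-deficient hearts (M149, M150 and M34, in this order throughout). After MI it was at 63.8, 63.7 and 78.7 CPM in the controls M006, M38 and M40 and at 67.3, 89.1 and 64.7 CPM in Vegfc-deficient hearts (M35, M900 and M913). Every MI library lay above every naive library, and M40 and M900 were the highest of their groups. On the log2 scale the change was 1.04 in control hearts (standard error 0.20, 95% interval 0.59 to 1.49, adjusted p = 0.00221 by the edgeR test). It was 1.30 in Vegfc-deficient hearts (standard error 0.18, 95% interval 0.90 to 1.69, adjusted p = 2.23e-04 by the edgeR test), and 1.46 without M149.

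Notch3, the receptor of vascular smooth muscle and pericytes (ENSMUSG00000038146, chr17:32120820-32166852), was at 20.1 and 19.4 CPM in naive controls and at 16.4, 16.1 and 18.5 CPM in naive Vegfc-deficient hearts. After MI it rose to 38.2, 26.5 and 45.7 CPM in controls and to 36.3, 48.1 and 48.1 CPM in Vegfc-deficient hearts. No MI library reached down to the naive range, and M38 was the lowest of the MI libraries. The log2 fold changes were 0.90 in control hearts (standard error 0.22, adjusted p = 0.00731 by the edgeR test) and 1.38 in Vegfc-deficient hearts (standard error 0.20, adjusted p = 2.76e-04 by the edgeR test). The control value missed the threshold without the naive control M45 (adjusted p = 0.0561), and the Vegfc-deficient value was 1.35 without M149.

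Notch4, the endothelial receptor (ENSMUSG00000015468, chr17:34564268-34588503), was called lower in Vegfc-deficient hearts and had a similar value, not called, in control hearts. It was at 30.2 and 32.3 CPM in naive controls and at 30.3, 33.9 and 39.1 CPM in naive Vegfc-deficient hearts. After MI it was at 26.1, 21.1 and 19.9 CPM in controls and at 21.6, 21.7 and 30.4 CPM in Vegfc-deficient hearts. The control groups did not overlap in CPM, whereas MI Vegfc-deficient M913 (30.4 CPM) reached the library labelled M149 (30.3 CPM). The separation of the control groups rests on the TMM factors. Relative to total counts alone, M006 (484 of 15709080) lay above M44 (339 of 12814385) and M45 (356 of 13319313). M38 and M40 lay below both. The fitted log2 change was -0.48 in control hearts (standard error 0.19, adjusted p = 0.0533 by the edgeR test) and -0.49 in Vegfc-deficient hearts (standard error 0.17, adjusted p = 0.0311 by the edgeR test). Both values stood near the threshold. The control value was called under 7 of 17 alternatives, with adjusted p from 0.0177 to 0.211 over all of them. The Vegfc-deficient value was not called without M150, M34, M35 or M900 (adjusted p = 0.0622, 0.114, 0.0916 and 0.0883), nor when the compared groups were fitted alone. Without M149 it was -0.57 and called (adjusted p = 0.0248).

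Notch1, the receptor of endothelial and many other cells (ENSMUSG00000026923, chr2:26457903-26516663), was the receptor whose groups overlapped throughout. It was at 37.5 and 30.7 CPM in naive controls, 29.4, 25.2 and 37.8 CPM in naive Vegfc-deficient hearts, 36.1, 28.9 and 33.4 CPM in MI controls and 27.0, 33.6 and 32.8 CPM in MI Vegfc-deficient hearts. The log2 fold change was -0.06 in control hearts (95% interval -0.47 to 0.36) and 0.02 in Vegfc-deficient hearts (95% interval -0.36 to 0.39), neither called by the edgeR test (adjusted p = 0.817 and 0.944). Without M149 the latter was -0.019 (adjusted p = 0.938). Genes whose exons overlap those of Notch1, Notch2 and Notch3 in the annotation are not among the genes counted, and Dll4 shares 214 exon bases with Gm14207 on the opposite strand.

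Among the ligands, Jag1 rose and Jag2 fell in both genotypes, and Dll4 was called lower in control hearts. Jag1 encodes the Jagged ligand of endothelium and smooth muscle (ENSMUSG00000027276, chr2:137081456-137116644). It was at 19.4 and 21.4 CPM in naive controls and at 21.0, 26.1 and 22.3 CPM in naive Vegfc-deficient hearts. After MI it was at 54.2, 34 and 55.5 CPM in controls and at 52.7, 61.4 and 49.0 CPM in Vegfc-deficient hearts. All 6 MI libraries were above all 5 naive ones, with M38 the lowest. Expressed as log2, the fold change was 1.23 in control hearts (standard error 0.22, adjusted p = 0.00141 by the edgeR test) and 1.23 in Vegfc-deficient hearts (standard error 0.19, adjusted p = 4.17e-04 by the edgeR test), the latter 1.17 without M149.

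Jag2, the other Jagged ligand (ENSMUSG00000002799, chr12:112907819-112929776), was at 30.1 and 22.1 CPM in naive controls and at 19.9, 17.1 and 35.6 CPM in naive Vegfc-deficient hearts. After MI it fell to 13.4, 10.4 and 8.77 CPM in controls and to 12.9, 7.63 and 12.0 CPM in Vegfc-deficient hearts. Every MI library lay below every naive library, although the naive libraries ranged from 17.1 to 35.6 CPM. The estimated log2 fold change was -1.27 in control hearts (standard error 0.33, adjusted p = 0.00985 by the edgeR test) and -1.16 in Vegfc-deficient hearts (standard error 0.31, adjusted p = 0.00832 by the edgeR test). Without the naive control M44 the control value was -1.03 and no longer called (adjusted p = 0.0873), and without M34 the Vegfc-deficient value was -0.77 and still called (adjusted p = 0.0376). Without M149 the latter was -1.29.

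Dll4, the Delta-like ligand of arterial and sprouting capillary endothelium (ENSMUSG00000027314, chr2:119325784-119335962), was at 32.7 and 33.4 CPM in naive controls and at 24.7, 23.1 and 47 CPM in naive Vegfc-deficient hearts. After MI it was at 22.1, 18 and 13.4 CPM in controls and at 19.2, 16.9 and 24.8 CPM in Vegfc-deficient hearts. The control groups did not overlap, but MI Vegfc-deficient M913 lay above the naive libraries M149 and M150. The log2 fold change was -0.89 in control hearts (standard error 0.31, adjusted p = 0.0339 by the edgeR test), and the call was lost without M44, M45, M38 or M40 (adjusted p = 0.112, 0.125, 0.0512 and 0.0981). In Vegfc-deficient hearts it was -0.65 (standard error 0.28, adjusted p = 0.0714 by the edgeR test), and without M149 it was -0.80 and called (adjusted p = 0.0453). Without M34, the highest naive library, it was -0.24 (adjusted p = 0.397).

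Among the target genes, Heyl was called higher in Vegfc-deficient hearts and Hey1 lower in control hearts. Heyl, a HEY-family repressor gene of smooth muscle and pericytes (ENSMUSG00000032744, chr4:123233556-123249875), was at 55.8 and 51.5 CPM in naive controls and at 38.3, 35.7 and 50.4 CPM in naive Vegfc-deficient hearts. After MI it was at 83.7, 52.8 and 105 CPM in controls and at 72.3, 127 and 89.3 CPM in Vegfc-deficient hearts. M38 lay inside the range of the naive controls, and the other 5 MI libraries lay above every naive library. On the log2 scale the change was 0.59 in control hearts (95% interval -0.085 to 1.26, adjusted p = 0.13 by the edgeR test), and without M38 it was 0.75 and called (adjusted p = 0.0345). In Vegfc-deficient hearts it was 1.21 (95% interval 0.61 to 1.81, adjusted p = 0.00353 by the edgeR test), and 1.16 without M149.

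Hey1, the target gene best known from arterial endothelium (ENSMUSG00000040289, chr3:8663359-8667256), was at 44.4 and 27.4 CPM in naive controls and at 21.8, 21.1 and 29.7 CPM in naive Vegfc-deficient hearts. After MI it was at 26.5, 15.1 and 16.0 CPM in controls and at 18.7, 18.7 and 19.6 CPM in Vegfc-deficient hearts. In neither genotype did the MI and naive libraries overlap, but M006 came close to the naive control M45, and M44 stood far above the rest. The fitted log2 change was -0.90 in control hearts (standard error 0.27, adjusted p = 0.0188 by the edgeR test). It was -0.51 and not called without M44 (adjusted p = 0.238), and the call was also lost without M40 (adjusted p = 0.0586) and when the 2 groups were fitted alone (adjusted p = 0.0569). In Vegfc-deficient hearts it was -0.35 (standard error 0.25, adjusted p = 0.25 by the edgeR test), and -0.42 without M149.

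Hey2, a HEY-family gene of arterial endothelium and of cardiomyocytes (ENSMUSG00000019789, chr10:30832359-30842801), had the lowest counts of the members. It was at 5.98 and 4.62 CPM in naive controls, 5.59, 4.84 and 4.80 CPM in naive Vegfc-deficient hearts, 6.19, 3.69 and 8.33 CPM in MI controls and 6.46, 7.67 and 6.63 CPM in MI Vegfc-deficient hearts. The MI and naive libraries overlapped in control hearts and did not in Vegfc-deficient hearts. The log2 fold change was 0.19 in control hearts (standard error 0.32) and 0.45 in Vegfc-deficient hearts (standard error 0.28), and neither was called by the edgeR test (adjusted p = 0.633 and 0.199). Without M149 the latter was 0.52 (adjusted p = 0.21). The control value had no stable sign, at -0.11 without M40 and 0.39 without M38.

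**Figure D2:**
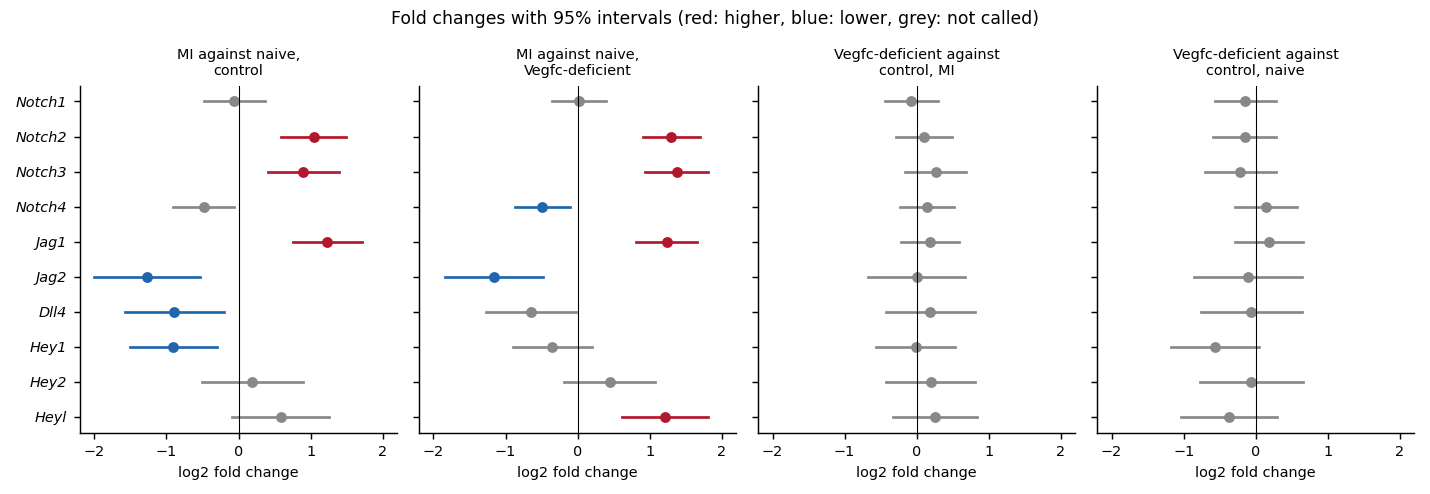
Log2 fold change (horizontal axes) of each member with its 95% interval in the 4 comparisons named above the panels, from edgeR's quasi-likelihood fit, coloured by call at an adjusted p under 0.05 (red higher, blue lower, grey not called). Calls occur in the MI comparisons, and in both genotype comparisons every interval includes 0.

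The balance within each role was then read inside single libraries, from CPM per kilobase of the longest protein-coding transcript, which makes levels of different genes comparable. In naive hearts Hey1 (median 11.3), Heyl (11.1) and Dll4 (8.74) had the highest CPM per kilobase of the members and their ranges overlapped. The ranges of Dll4 and Notch4 (4.89) did not overlap, and from there down through Jag2, Jag1, Notch1, Notch2 and Notch3 to Hey2 (1.90) each neighbour overlapped the next. In MI hearts Heyl (median 19.1) stood above Jag1 (9.52) without overlap, Jag1, Hey1 and Notch2 overlapped as neighbours, and Notch2 (6.29) lay above Notch3 (5.23) without overlap. Dll4, Notch1, Notch4, Hey2 and Jag2 followed with overlapping ranges. Some steps depended on the length used: with all annotated exons of a gene, a choice made after seeing the data, the naive median of Notch1 was 2.16, under Notch3 at 2.28, and the MI median of Hey1 was 5.73, under Notch2 at 6.12.

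Dll4 held the largest share of the ligand pool in every naive library, and Jag1 in every MI library. Jag1 made up 16.9 to 32.9% of the summed ligand CPM per kilobase in the 5 naive libraries and 47 to 65.1% in the 6 MI libraries, and Dll4 went from 43.5 to 53.4% down to 23.6 to 37.4%. Jag2 held 23.6 to 32.6% in naive and 8.82 to 15.8% in MI libraries. Within a library, the ratio of Jag1 to Dll4 per kilobase was 0.317 to 0.755 in naive hearts (median 0.427) and 1.26 to 2.76 in MI hearts (median 1.74). The ratio of Jag1 to Jag2 was 0.571 to 1.39 in naive and 2.97 to 7.32 in MI hearts. These ratios do not depend on how libraries are scaled, but the gene pairs were chosen after their values were seen, so they are given as a description. Without M149 the naive ranges of the ligand shares and ratios were the same.

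Notch4 held the largest share of the receptor pool in every naive library, and Notch2 in every MI library. Notch4 held 32.6 to 41.0% of the summed receptor CPM per kilobase in naive and 15.3 to 22.8% in MI libraries. Notch2 went from 16.2 to 26.3% up to 30.5 to 39.8%, and Notch3 from 15.5 to 17.8% up to 21.2 to 29.7%. The share of Notch1 was 21.2 to 28% in naive and 16.6 to 20.4% in MI libraries, although its CPM overlapped between the states. The ratio of Notch2 to Notch4 per kilobase was 0.398 to 0.756 in naive and 1.34 to 2.58 in MI hearts, and that of Notch3 to Notch4 was 0.388 to 0.546 and 1.03 to 1.89. Among the targets Hey1 held 45.8 to 55.6% in naive and 19.9 to 34.4% in MI libraries, whereas Heyl held 37.3 to 46.4% and 58.0 to 72.3%. Hey2 overlapped, at 7.11 to 11.2% and 7.48 to 9.87%. Without M149 the highest naive values were 23.9% for the share of Notch2, 10.3% for that of Hey2 and 0.677 for the ratio of Notch2 to Notch4, and the lowest were 15.8% for the share of Notch3 and 46.2% for that of Hey1.

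**Figure D3:**
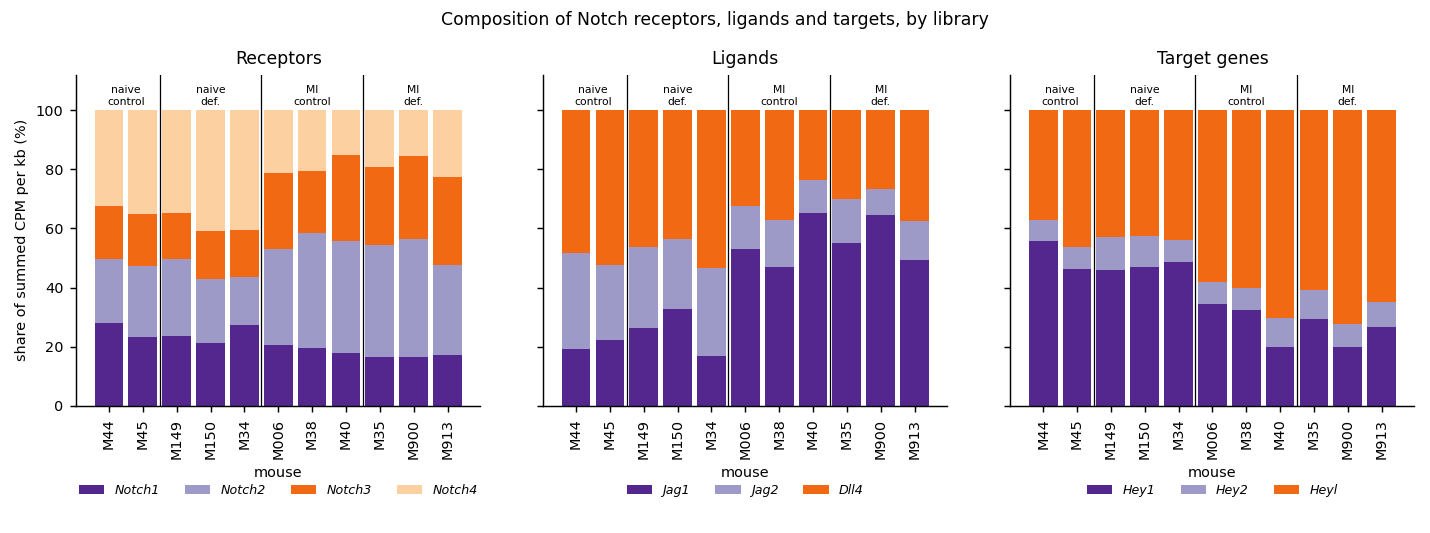
Share (%) of each gene in the summed CPM per kilobase of its role, stacked to 100% for each of the 11 libraries (1 bar per mouse, grouped by state and genotype as marked above the bars). The bars of the 6 MI libraries hold more Jag1, Notch2, Notch3 and Heyl and less Dll4, Jag2, Notch4 and Hey1 than those of the 5 naive libraries.

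Markers of vessel cells also differed between MI and naive hearts, in both directions. Lower calls were held by 24.1% of all genes tested in control and 27.7% in Vegfc-deficient hearts. Of 10 blood endothelial genes 4 were lower in each genotype. Among the 4 were Kdr (log2 fold change -1.67 in control and -1.19 in Vegfc-deficient hearts) and Flt1 (-1.45 and -1.12), while Cdh5 was higher in Vegfc-deficient hearts. The summed level of the 10 genes was 1475 to 2043 CPM in naive and 753 to 1574 CPM in MI libraries. None of the 10 was called in a genotype comparison. In whole tissue fewer cells of a type and less RNA per cell cannot be told apart. Per 1000 CPM of these endothelial genes, Dll4 was at 15 to 23.0 in naive and 14.0 to 20.3 in MI libraries, Hey1 at 13.6 to 22.9 and 14.8 to 21.2, and Notch4 at 15.6 to 21.9 and 16.6 to 26.4. On that scale the naive and MI ranges of Dll4, Hey1 and Notch4 overlapped widely. Jag2 overlapped less, at 11 to 17.4 in naive and 7.39 to 11.8 in MI libraries. Jag1 was at 9.97 to 16.9 in naive and 34.4 to 73.7 in MI libraries, and Notch2, Notch3 and Heyl were also above the naive range on that scale. So were Notch1 (16.25 to 19.94 and 21.35 to 44.39), whose CPM overlapped between the states, and Hey2 (2.35 to 3.79 and 3.93 to 11.06). The 4 naive libraries other than M149 gave the same ranges for Dll4, Hey1, Notch4, Jag1 and Jag2. Their highest values were 19.3 for Notch1 and 3.13 for Hey2.

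**Figure D4:**
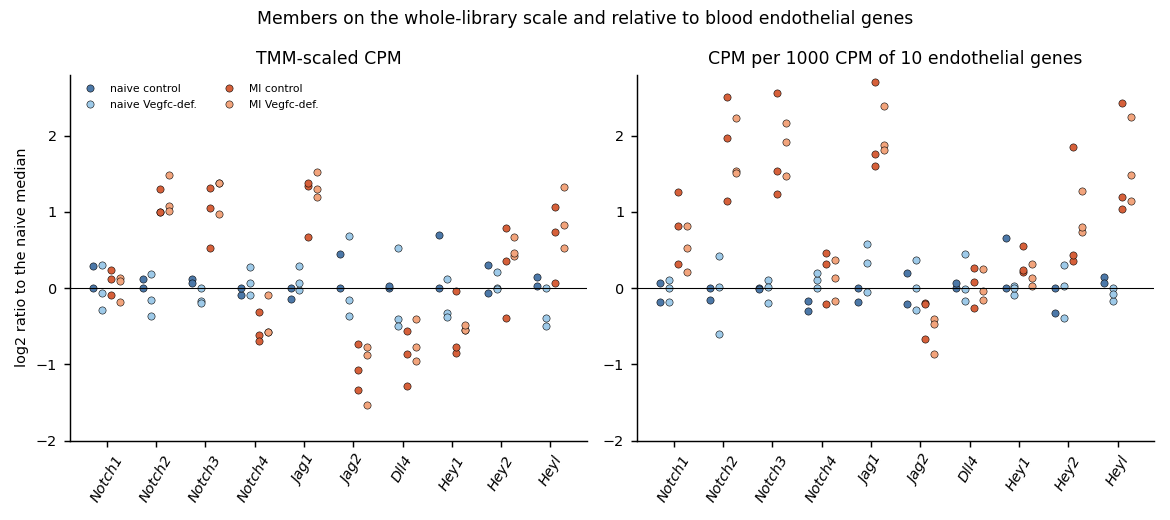
Log2 ratio to the median of the 5 naive libraries (vertical axes) for each member and library, on TMM-scaled CPM (left) and per 1000 CPM of 10 blood endothelial genes (right). Dll4, Hey1 and Notch4 lie below the naive median in all 6 MI libraries on the left. On the right Dll4 and Notch4 lie on both sides of it and Hey1 above it but within the naive range. Notch1, Notch2, Notch3, Jag1, Hey2 and Heyl lie above the naive median on the right in all MI libraries.

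Of 11 genes listed for smooth muscle cells and pericytes (mural genes), 6 were higher in each genotype (Pdgfrb, Myh11, Acta2, Tagln, Cnn1 and Mcam) and 3 lower (Rgs5, Kcnj8 and Abcc9, known from pericytes). Of all genes tested 26.3% were higher and 24.1% lower in control hearts, and 30.0% and 27.7% in Vegfc-deficient hearts. The summed level of the 11 genes overlapped, at 3097 to 4822 CPM in naive and 3014 to 3846 CPM in MI libraries. Whether other cells of the tissue also held RNA of these genes was not tested, so their sum is not a measure of mural cells alone. Beside the same shares of all genes, 4 of 8 arterial endothelial genes were higher in control hearts. In Vegfc-deficient hearts 5 were higher and 1 lower. Summed, these 8 genes were at 189.7 to 237.5 CPM in naive and 517.1 to 1066 CPM in MI libraries. Their median log2 fold change was 0.602 in control hearts (6 positive, 2 negative) and 0.58 in Vegfc-deficient hearts (5 and 3). Whether other cells also held their RNA was not tested, so the sum is not a measure of arterial endothelium alone. Among the MI libraries, Notch2, Jag1 and Heyl were highest in M40 for the controls and M900 for the Vegfc-deficient hearts, which were also the libraries with the least cardiomyocyte RNA (3727 and 7980 CPM). M38, lowest of the MI libraries in Notch2, Notch3, Jag1, Hey1, Hey2 and Heyl, had the highest sum of T cell genes (126 CPM) and of macrophage genes (4840 CPM). Per 1000 CPM of the mural genes Heyl overlapped, at 7.40 to 17.0 in naive and 15 to 39.6 in MI libraries, while Notch2 (5.97 to 11.8 and 17.2 to 27.9), Notch3 (3.34 to 6.12 and 7.52 to 15) and Jag1 (5.42 to 6.78 and 9.66 to 19.2) did not. Without M149 the highest naive values on this scale were 10.1 for Notch2 and 6.19 for Jag1. The part of these markers in the member values was not tested.

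The second question was whether loss of Vegfc in myeloid cells altered the Notch genes. In MI hearts none of the members was called between the genotypes: 0 of 10, as for 0% of all 14779 genes tested (the edgeR test). At an unadjusted p under 0.05 there were 0 members and 1173 of all genes, and 62 of all genes but 0 members were called by the DESeq2 Wald test and 0 genes by limma-voom. The groups overlapped for every member, whereas 12.1% of all genes tested did not overlap. The log2 fold changes of Vegfc-deficient against control hearts ran from -0.07 (Notch1) to 0.26 (Notch3, standard error 0.19, adjusted p = 0.758). For Heyl the value was 0.25 (95% interval -0.33 to 0.84, adjusted p = 0.842) and for Jag1 0.18 (95% interval -0.22 to 0.59, adjusted p = 0.836). For Jag2 it was 0.00089, with an interval from -0.67 to 0.67.

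In naive hearts 0 of 10 members were called, as for 0% of all genes, and at an unadjusted p under 0.05 there were 0 members and 499 of all genes. The DESeq2 Wald test called 14 genes and limma-voom 6, with 0 members in each. Notch3 and Heyl were lower in all 3 naive Vegfc-deficient libraries than in both controls, that is 2 of 10 members without overlap against 22.4% of all genes tested. Expressed as log2, the fold change was -0.21 for Notch3 (standard error 0.22), -0.37 for Heyl (standard error 0.30) and -0.57 for Hey1 (standard error 0.28, unadjusted p = 0.0655). Adjusted p was 1 by the edgeR test in each of these. Without M149 the values were -0.19 for Notch3, -0.32 for Heyl and -0.50 for Hey1, and without M44 that of Hey1 was -0.18.

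The response to MI was also compared between the genotypes by an interaction term. It was called for 0 of 10 members and for 0% of all genes (0 members and 1226 of all genes at an unadjusted p under 0.05, 58 genes but 0 members by the DESeq2 Wald test and 0 by limma-voom). The largest values were 0.62 for Heyl (standard error 0.40, adjusted p = 0.668 by the edgeR test), 0.55 for Hey1 (standard error 0.37, adjusted p = 0.675) and 0.48 for Notch3 (standard error 0.29, adjusted p = 0.657). So the calls that Heyl, Hey1, Dll4 and Notch4 had in 1 genotype and not in the other were not shown to differ between genotypes. Without M149 the values were 0.57 for Heyl, 0.48 for Hey1 and 0.45 for Notch3.

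Finally, 55 other genes of the pathway were listed by role, and 50 of them passed the filter on low counts. Dll3, Dlk1, Dlk2, Dner and Hes5 did not, with at most 15 counts in any library. In control hearts 17 of the 50 were higher and 4 lower (34% and 8%, beside 26.3% and 24.1% of all genes), and in Vegfc-deficient hearts 24 were higher and 5 lower (48% and 10%, beside 30.0% and 27.7%). The median log2 fold change of the list was 0.47 and 0.57, beside 0.13 and 0.097 over all genes tested. Of these genes 16 were higher in both genotypes and 2 lower in both, and the shares of all genes called in both were not computed. Without M149, 24 were higher and 6 lower in Vegfc-deficient hearts, and without M44, or without M45, 12 were called in control hearts, in place of 21.

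Among the genes called higher was Numbl, a Numb-family adaptor that antagonises Notch. It was at 7.26 to 10.3 CPM in naive and 21.0 to 35 CPM in MI libraries, with a log2 fold change of 1.59 in control and 1.86 in Vegfc-deficient hearts. Higher calls were held by 26.3% of all genes tested in control and 30.0% in Vegfc-deficient hearts. Of 6 genes that attach sugars to Notch receptors 4 were higher in each genotype. Among these, Pofut1, which adds O-fucose, changed by 0.99 and 1.33, and Lfng, which extends that fucose, by 1.46 and 1.06. Rbpj, the DNA-binding partner of the Notch intracellular part, was at 16.3 to 20.5 CPM in naive and 23.7 to 32.4 CPM in MI libraries, with log2 fold changes of 0.64 and 0.74. The coactivator Maml1 changed by 0.92 and 1.30 and the ubiquitin ligase Dtx4 by 0.87 and 1.33, both called in both genotypes (adjusted p of 0.0101 or lower by the edgeR test). Without M149 the Vegfc-deficient changes were 1.83 for Numbl, 1.40 for Pofut1, 1.08 for Lfng, 0.67 for Rbpj, 1.42 for Maml1 and 1.45 for Dtx4, all called higher.

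Among the genes called lower was Fbxw7, a ubiquitin ligase subunit that targets the Notch intracellular part for degradation. It was at 54.2 to 65.8 CPM in naive and 18.6 to 29.2 CPM in MI libraries, with a log2 fold change of -1.60 in control hearts (standard error 0.15, adjusted p = 1.37e-04 by the edgeR test) and -1.19 in Vegfc-deficient hearts (standard error 0.14, adjusted p = 9.28e-05). The histone acetyltransferase gene Kat2b was called lower in both (-0.72 and -0.59), and the deacetylase gene Hdac2 in Vegfc-deficient hearts (-0.54). Of 5 further genes listed under the role of target, without a test that they respond to Notch here, 4 were tested for MI. In control hearts 2 were lower, beside 24.1% of all genes: Hes1 (-0.84, adjusted p = 0.0171 by the edgeR test) and Nrarp (-0.71, adjusted p = 0.0336). In Vegfc-deficient hearts Hes1 was at -0.50 (adjusted p = 0.0831) and Nrarp at -0.51 (adjusted p = 0.0737), and neither was called, while Hes6 was lower (-0.95, adjusted p = 9.01e-04). Without M149 the Vegfc-deficient changes were -1.16 for Fbxw7, -0.66 for Kat2b, -0.61 for Hdac2 and -1.06 for Hes6, all called lower, and -0.54 for Hes1 and -0.54 for Nrarp, neither called. Between genotypes 0 of the 50 genes were called by the edgeR test in MI or naive hearts. At an unadjusted p under 0.05 there were 2 in MI hearts (Hes6 and Fbxw7) and 0 in naive hearts, and the DESeq2 Wald test and limma-voom called 0 in either.

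**Figure D5:**
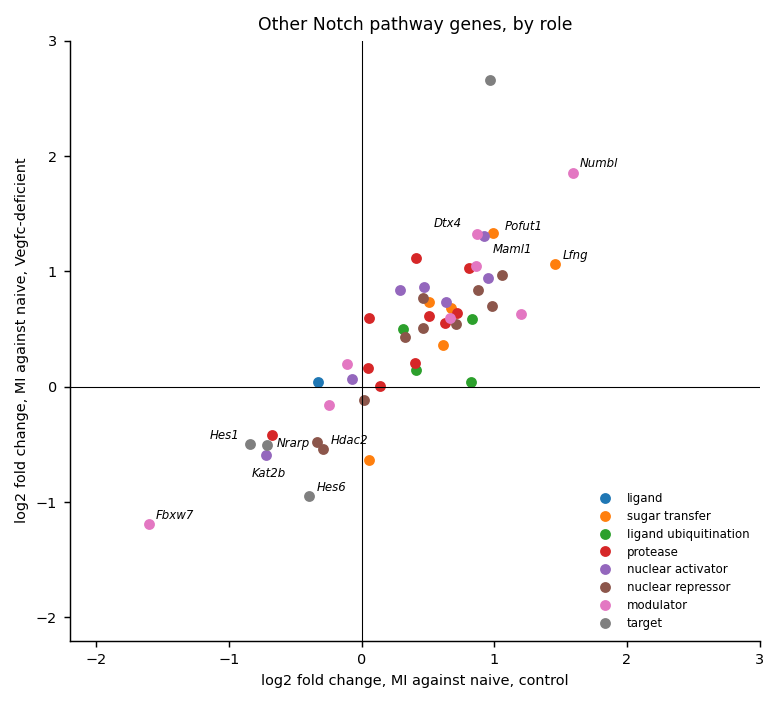
Log2 fold change after MI of the 50 other Notch pathway genes tested, in control hearts (horizontal axis) and Vegfc-deficient hearts (vertical axis), coloured by role, with 11 genes of large called change named. Most points lie above 0 on both axes, with Fbxw7 farthest below, and the highest point is Hes7 (2.66 in Vegfc-deficient hearts and 3.02 without M149, not called in either fit). Hes7 rests on few reads, with 0 to 8 counts in naive and 5 to 19 in MI libraries.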

How the data were processed

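RNA of infarcted left ventricle tissue, or of the matching piece in naive mice, was extracted with the RNeasy Plus mini kit. It was made into TruSeq Stranded mRNA libraries, 1 per mouse. Per the labels and the submitters' processing notes, reads were trimmed with cutadapt 1.13, with STAR, HTSeq 0.6.1p1, DESeq2 1.14.1 and mm10 also named, and HTSeq's strand setting was not given in the sources used here. The files the authors deposited, 1 for each library, hold unnormalized read counts for Ensembl genes.

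Of 25006 gene IDs, 24942 were named from the GENCODE M21 annotation of GRCm38. Counts were filtered with edgeR's filterByExpr (14779 genes left), scaled by TMM and tested in edgeR 4.0.16 (R 4.3.3) with a quasi-likelihood fit of all 11 libraries by group, with contrasts for MI within genotype, genotype within state and their interaction. P-values were adjusted over all genes tested by the Benjamini-Hochberg method. Standard errors were derived from each log2 fold change and its quasi-likelihood F statistic. Intervals are 95%, from these standard errors and the median degrees of freedom. Levels compared between genes were divided by the length of the longest protein-coding transcript. The floor of 3 counts covers counting error only. Alternatives were DESeq2 1.42.0 size factors and its Wald test, limma-voom (limma 3.58.1) with sample quality weights, other filters, the compared groups alone, and each library left out. The fit was also run on simulated data. Far fewer genes changed there than were called after MI, so that run could not check the scaling in the MI comparisons.

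The members, the other pathway genes and the marker lists were chosen with earlier results of these data known. All members are named, and of the other pathway genes at most 4 in each direction with the largest called change in each MI comparison (1 of these is not reported here), besides Vegfc, Lyz2 and genes named after their values were seen (Rbpj, Hes7, the markers and the genes of a count of 5 or fewer).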

Additional observations from a re-analysis of the deposited data

How the results depend on the processing

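Over 10 members, 5 comparisons and all alternatives, 838 values were recomputed: 756 kept their direction and their side of the threshold, 12 gained a call, 14 lost one and 56 changed sign, none of these with a call under either setting. Notch2 and Jag1 in both genotypes, and Notch3, Heyl and Jag2 in Vegfc-deficient hearts, were called under each alternative run. In control hearts 3 to 7 members were called when 1 library was left out, 3 of them without the naive control M44, which leaves 1 naive control library that is assumed to vary like the other groups. The value of Notch1 in Vegfc-deficient hearts was -0.042 with DESeq2 size factors and -0.044 by the DESeq2 Wald test, and -0.11 to 0.19 when 1 library was left out. With 1 library left out, Notch1 in control hearts ran from -0.19 to 0.094 and Hey2 in control hearts from -0.11 to 0.39. The causes were not tested. Calls in the genotype and interaction comparisons stayed at 0 members under each alternative. Among the other pathway genes the called count ran from 12 to 27 in control and from 21 to 33 in Vegfc-deficient hearts. With 2 naive control libraries, those comparisons rest most on single libraries. No paired analysis was possible because the groups share no replicate numbers.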
